A study of Mus musculus with 27 samples.

Results

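Gene expression in the whole fetal brain of AKR/J mice was compared with that of C57BL/6J mice on gestational day (d) 15. The comparison takes the 3 AKR/J d15 and the 3 C57BL/6J d15 libraries, 6 of the 27 RNA-seq libraries of the series, and covers the 55416 genes of the read count table, of which 19692 had enough reads in these 6 libraries to be tested. Both are wild-type inbred strains without a transgene, bought from the Jackson Laboratory and kept in separate timed pregnancies, with the day of the vaginal plug counted as day 1, and the fetuses are labelled female. AKR/J is a short-lived strain prone to leukemia and C57BL/6J is the long-lived strain of the study, which asked how gene regulation in the fetal brain differs between strains of unequal lifespan. The third strain, B6.Cg-Cav1tm1Mls/J, referred to as Cav1-null, lacks caveolin-1 on a C57BL/6J background. It enters here for its level beside both strains, for gene sets and junction reads that are set beside the comparison, and in a model of all 27 libraries that was run as an alternative. Because the RNA came from whole brain, fewer cells of a type and less RNA per cell cannot be told apart in any of the values below, and strain and litter cannot be told apart either.

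At this stage of mouse gestation the radial glia that line the ventricles of the forebrain divide to give intermediate progenitors and projection neurons, and deep-layer neurons form before upper-layer neurons. Inhibitory neurons migrate into the cortex from the ventral forebrain, blood vessels grow inward from the surface, and astrocytes and oligodendrocytes arise later from the same progenitors. Fetal blood, which stays in the vessels of the dissected tissue, passes over the same days from embryonic globins made by yolk sac red cells to adult globins made by red cells of the fetal liver.

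The 3 AKR/J libraries held 29437156 to 30160663 reads on genes and the 3 C57BL/6J libraries 37191332 to 39759702. Levels are given as CPM, the usual scaling of read counts to library size, for replicates 1, 2 and 3 of a strain in this order. Some libraries stood apart from their group in genes that should vary little in a dissected female brain. Xist, which is expressed from the inactive X chromosome, was at 5092, 5142 and 3.29 CPM in AKR/J and at 3087, 3213 and 3048 CPM in C57BL/6J. AKR/J replicate 3, with almost none, also had no read of the 4 Y-linked genes examined (Ddx3y, Eif2s3y, Kdm5d and Uty). AKR/J replicate 2 and C57BL/6J replicate 1 held higher levels of markers of tissue around the brain. The summed level of the connective tissue, meninges and cartilage markers was 1909 CPM in the former against 341 and 342 CPM in the other AKR/J libraries, and 6146 CPM in the latter against 697 and 929 CPM in the other C57BL/6J libraries. Skeletal muscle markers summed to 180 CPM in AKR/J replicate 2 and 96.2 CPM in C57BL/6J replicate 1 against 13.9 to 15.7 CPM in the other 4. Lens crystallin and other epidermis and eye markers reached 338 CPM in AKR/J replicate 2 against 41.6 and 43.7 CPM. Of the 20 connective tissue markers tested, 1 was higher and 2 were lower in AKR/J, or 8 lower without AKR/J replicate 2, and no muscle, pituitary or placenta marker was called. Hox genes, which are expressed from the hindbrain backward, summed to 12.9, 42.5 and 225 CPM in AKR/J and to 1.76, 0.826 and 254 CPM in C57BL/6J. None was called, but 8 of them were higher in AKR/J without C57BL/6J replicate 3. Cav1 itself, which codes for caveolin-1, was at 23.7, 34.2 and 15.2 CPM in AKR/J and 19.6, 12.8 and 19.1 CPM in C57BL/6J and was not called (log2 fold change 0.58 ± 0.31 SE, adjusted p = 0.174), though it was without AKR/J replicate 3 (0.80, adjusted p = 0.0368), while its mean in the Cav1-null d15 libraries was 0.0872 CPM.

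On d15, 8089 of the 19692 genes tested were differentially expressed (DE) between AKR/J and C57BL/6J at an adjusted p under 0.05 in edgeR's quasi-likelihood test, which is 41.1% of the genes. Of these, 3696 genes were higher in AKR/J (18.8% of the genes tested) and 4393 were lower (22.3%). These shares are the background against which each gene group below is read, beside 18.8% higher and 28.2% lower among protein-coding genes alone. In the model of all 27 libraries, given as an alternative below, the shares were 6.77% higher and 15.7% lower of 23307 genes. The 3 libraries of a strain did not overlap with those of the other for 53.4% of the genes tested and 98.4% of the DE genes, so that single genes below whose strains did not overlap share this with nearly all DE genes. Most differences were small, with a median absolute log2 fold change of 0.66 among DE genes, and 772 genes were higher and 1120 lower by at least 1 on the log2 scale. The direction of the calls depended on the scaling between libraries. With upper quartile scaling in place of TMM 5208 genes were higher and 3460 lower, and with library sizes alone 5542 were higher and 3281 lower, because the median of all genes moved by 0.14 and 0.16 on the log2 scale. With AKR/J replicate 3 and C57BL/6J replicate 1 both left out, 2417 genes were higher and 4032 lower, and with AKR/J replicate 2 and C57BL/6J replicate 1 both left out, 2672 were higher and 4059 lower.

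The classes of gene did not share in the calls alike. Of 15170 protein-coding genes tested, 2854 (18.8%) were higher and 4271 (28.2%) lower in AKR/J. Of 2264 long non-coding RNA genes, 360 (15.9%) were higher and 58 (2.56%) lower, and of 843 pseudogenes 218 (25.9%) were higher and 31 (3.68%) lower. The share of genes called on the autosomes and the X chromosome ran from 36.4% to 48.6%, the highest of these being chromosome 4.

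The strain difference also moved along with the base composition and the length of the transcripts. Among genes in the lowest of 10 bins of GC content (28.65% to 41.66% GC), 54.1% were higher and 2.73% lower in AKR/J, with a median log2 fold change of 0.48. In the highest bin (58.2% to 78.34% GC) 4.22% were higher and 49.2% lower, with a median of -0.44, and the medians of the bins between lay in order. The bin of the shortest transcripts (65 to 1172 bases) had a median of 0.48 and that of the longest -0.31. The trend was visible in single libraries as well. Relative to the mean of all libraries, the median log2 level of the GC-richest bin minus that of the GC-poorest bin was 0.82 to 0.90 in the C57BL/6J d15 libraries. It was -0.14 to 0.05 in the AKR/J and -0.59 to -0.15 in the Cav1-null d15 libraries. A trend of this kind was therefore removed from each library in a second fit, whose counts are given beside those of the gene lists below. In that fit 4789 genes were DE (24.3%), of which 1903 (9.66%) were higher and 2886 (14.7%) lower. Of the genes higher in AKR/J without the correction 1178 (31.9%) were called higher with it, and of the lower ones 2265 (51.6%) were called lower with it. Among pseudogenes 83 were then higher and 60 lower, and among long non-coding RNAs 83 were higher and 143 lower. Whether the trend is technical or part of the strain difference was not tested.

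**Figure D1:**
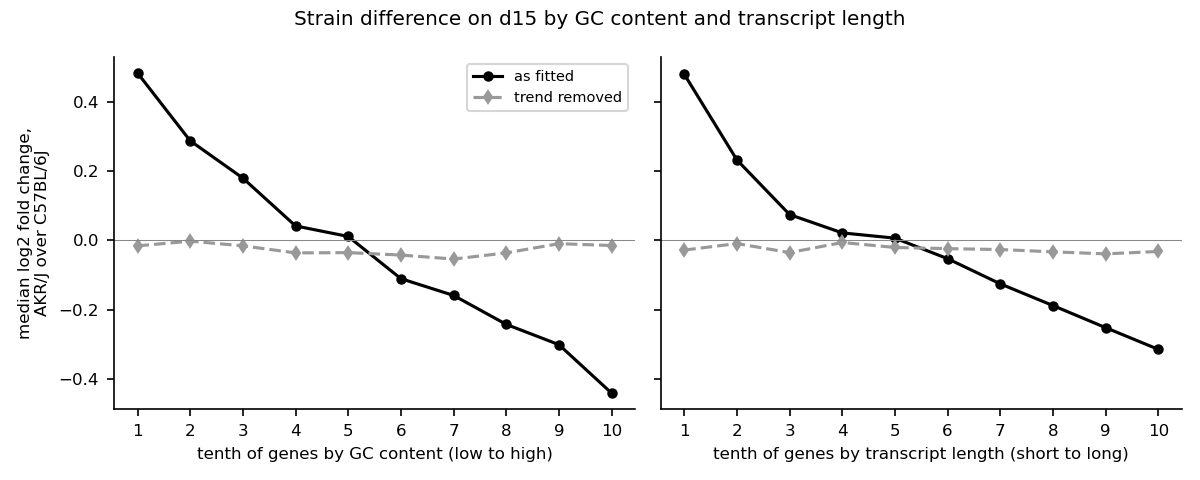
Median log2 fold change of AKR/J over C57BL/6J on d15 in 10 bins of genes by GC content (percent) and by transcript length (bases), as fitted and after the trend of each library was removed. As fitted, the medians fell from 0.48 in the GC-poorest bin to -0.44 in the GC-richest bin, and after removal they lay near 0.

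The largest rises in AKR/J were mostly of processed pseudogenes, intron-less copies of housekeeping mRNAs. Of the 77 genes with a log2 fold change of at least 3, 47 were pseudogenes, against 8 of the 40 genes at -3 or below. Rpl17-ps5, a copy of a ribosomal protein gene (chr5:22817626-22818180, GRCm39), was at 23.4, 23.9 and 22.5 CPM in AKR/J and at 0.0270, 0 and 0.0295 CPM in C57BL/6J (log2 fold change 10.06 ± 0.33 SE, adjusted p = 1.17e-05). Gm8730 (chr8:103591477-103592430), a copy of the ribosomal stalk protein gene Rplp0, was at 304, 316 and 272 CPM in AKR/J and at 0.540, 0.384 and 0.472 CPM in C57BL/6J (9.37 ± 0.15 SE, adjusted p = 5.45e-07). For both genes every AKR/J library lay far above every C57BL/6J library. Gm13394 (9.60 ± 0.19), Gm9625 (8.999 ± 0.28), Hmgb1-ps7 (7.76 ± 0.17), Rps7-ps3 (7.22 ± 0.15), Gm12191 (6.96 ± 0.24) and Gm7993 (5.91 ± 0.18) showed the same separation. The 10 largest rises also held Eno1b, an intron-less copy of the enolase gene Eno1 on chromosome 18, at 28.6, 29.7 and 43.9 CPM against 0.108, 0.0886 and 0.0590 CPM (8.63 ± 0.28 SE, adjusted p = 1.17e-05). The remaining gene was Zfp990 (chr4:145237287-145269397), which codes for a zinc finger protein of a large family, at 14.4, 22.9 and 13.8 CPM against 0, 0.0295 and 0.0885 CPM (8.74 ± 0.57 SE, adjusted p = 0.00014).

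**Figure D2:**
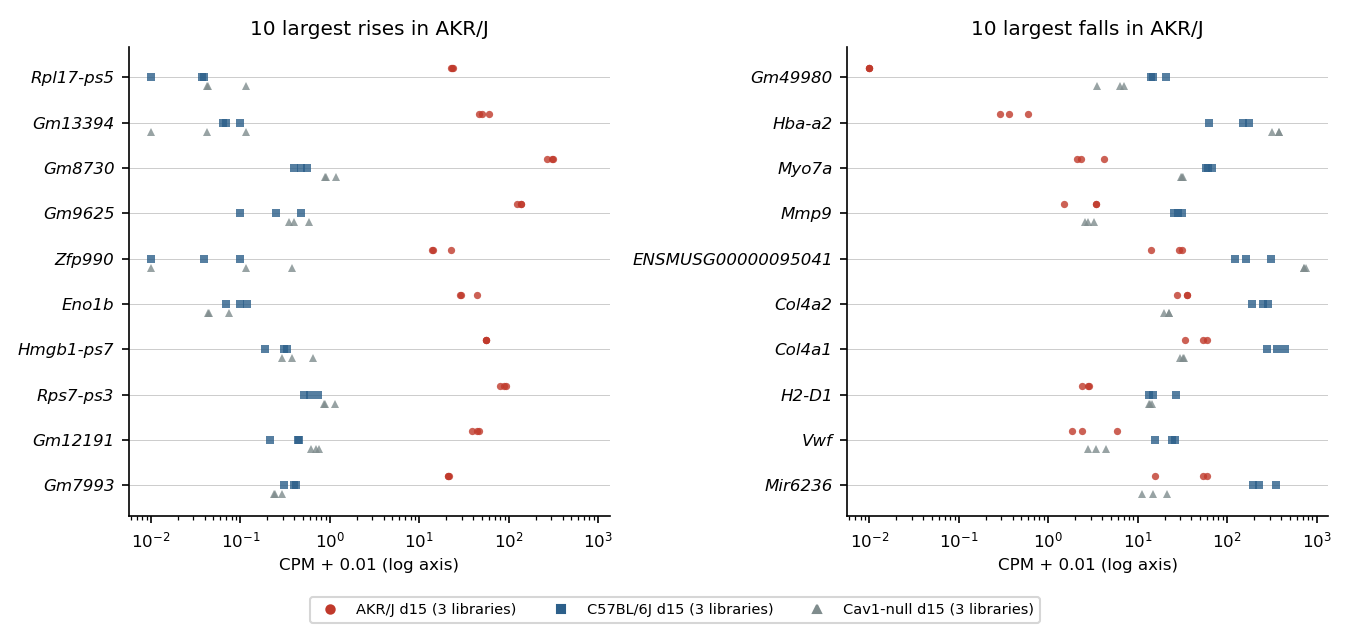
CPM plus a small constant, on a log axis, in each of the 3 AKR/J, 3 C57BL/6J and 3 Cav1-null d15 libraries for the 10 largest rises and 10 largest falls. AKR/J and C57BL/6J libraries did not overlap for any of the 20 genes, as the choice of genes required, and C57BL/6J values of the pseudogenes lay at or near 0.

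These copies share most of their sequence with a parent gene, so reads can be placed on either. Of the 31-base words in the transcript, 100% in Rpl17-ps5, 88.3% in Gm8730, 77.2% in Hmgb1-ps7, 70.6% in Gm7993 and 95.0% in Hba-a2 also occurred in another gene, against 0.385% in Myo7a and 0% in Col4a1 and Mmp9. Of the partner genes, Rplp0 had a log2 fold change of -0.30 (adjusted p = 0.0332) and Odc1 one of -0.33, and Hba-a1 was higher in AKR/J. Over their aligned length Gm8730 and Rplp0 differed at 12 of 954 bases, Gm7993 and Odc1 at 31 of 1366, Hmgb1-ps7 and Hmgb1 at 9 of 648, and Hba-a2 and Hba-a1 at 1 of 647. The windows below show, for each pair, 30 bases of the GRCm39 reference transcripts in which the copies can be told apart. Capitals mark the bases that differ within a pair, and coordinates and strand follow each name.
Gm8730, chr8:103592038-103592067, minus strand: actgtgccagctcagaacactggtctGggG
Rplp0, chr5:115699203-115699232, plus strand: actgtgccagctcagaacactggtctAggA
Gm7993, chr5:96122392-96122421, plus strand: tAcaggggcCtggggtgcctCcagagaCgA
Odc1, chr12:17597967-17597996, plus strand: tGcaggggcTtggggtgcctGcagagaGgG
Hmgb1-ps7, chr7:41670271-41670300, plus strand: agatcctaaGaagccgagaggcaaaatgtA
Hmgb1, chr5:148987507-148987536, minus strand: agatcctaaAaagccgagaggcaaaatgtC
Hba-a2, chr11:32247131-32247160, plus strand: ttcacccccgcggtgcatgcctctctggaT
Hba-a1, chr11:32234314-32234343, plus strand: ttcacccccgcggtgcatgcctctctggaC
All of these windows lie in exons. Which base the AKR/J reads carried at these positions was not analysed here, so the level of each copy is uncertain where reads could be split between copies.

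Globin genes carried some of the largest differences in both directions. Hbb-y, the embryonic epsilon-type globin of yolk sac red cells, was at 731, 917 and 1572 CPM in AKR/J and 85.5, 87.7 and 65.9 CPM in C57BL/6J (3.81 ± 0.29 SE, adjusted p = 0.000207). Hbb-bh1, another embryonic beta-type globin, was at 3.93, 5.41 and 7.23 CPM against 0.405, 0.826 and 1.09 CPM (2.90 ± 0.40 SE, adjusted p = 0.00124), and the embryonic alpha-type globin Hba-x at 25.6, 32.4 and 54.1 CPM against 13.2, 13.8 and 12.4 CPM (1.57 ± 0.25 SE, adjusted p = 0.00217). All 3 embryonic globins were higher in every AKR/J library than in any C57BL/6J library. Of the 4 adult globins, of which the beta genes are named after the haplotype of C57BL/6J, Hbb-bs (1.35 ± 0.23), Hbb-bt (0.71 ± 0.23) and Hba-a1 (1.34 ± 0.17) were higher in AKR/J as well, and Hba-a2 was lower. Embryonic globins made up 38.2%, 32.3% and 53.6% of the summed globin CPM in the AKR/J d15 libraries and 9.55%, 12.7% and 8.87% in C57BL/6J, so the groups did not overlap. In the Cav1-null d15 libraries the share was 1.34% to 1.59%. On d12 the share lay between 89.2% and 93.5% in AKR/J and between 54.0% and 86.4% in C57BL/6J. On d17 it lay between 0.280% and 0.457% in AKR/J and between 0.0166% and 0.0214% in C57BL/6J.

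Adult alpha globin was divided differently between its twin genes. Hba-a2 (chr11:32246168-32247320) was at 0.283, 0.581 and 0.352 CPM in AKR/J and 177, 63.0 and 152 CPM in C57BL/6J (-8.24 ± 0.54 SE, adjusted p = 0.000142), whereas the sum of Hba-a1 and Hba-a2 was 420, 644 and 583 CPM against 415, 304 and 358 CPM. Hba-a2 thus held 0.0603% to 0.0903% of that sum in AKR/J and 20.7% to 42.7% in C57BL/6J. Other erythroid genes that were higher in AKR/J included Epb42, for a protein of the red cell membrane skeleton (1.67 ± 0.38, a call that was lost in the model of all 27 libraries) and the transferrin receptor gene Tfrc (0.41 ± 0.055). Of 16 erythroid genes tested, 9 were higher and 1 was lower (median 0.76), against 18.8% and 22.3% of all genes. With the trend removed 6 were higher and 1 lower, the calls of Tfrc and Hbb-bt being among those lost, and in the model of all 27 libraries, which did not call Hbb-bh1 either, 3 were higher and 1 lower. The summed erythroid level lay between 2134 and 3189 CPM in the AKR/J libraries, above the 918 to 1163 CPM of C57BL/6J, and its part in the globin differences was not tested.

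Among the largest falls were Myo7a and several genes of the vessel wall and its basement membrane. Myo7a, which codes for the motor protein myosin VIIa (chr7:97699069-97768734), was at 2.29, 4.22 and 2.11 CPM in AKR/J and 61.3, 67.6 and 58.7 CPM in C57BL/6J, a level 21.8-fold lower (-4.36 ± 0.27 SE, adjusted p = 0.000126). Mmp9, a metalloproteinase that degrades basement membrane, was at 1.51, 3.39 and 3.45 CPM against 28.6, 25.8 and 31.2 CPM (-3.28 ± 0.30 SE, adjusted p = 0.000315). For both genes the highest AKR/J library lay far below the lowest C57BL/6J library. The paired genes Col4a1 and Col4a2, which code for the chains of the basement membrane collagen IV, were at 33.7, 54.3 and 59.8 and at 27.5, 35.2 and 35.8 CPM in AKR/J against 446, 277 and 362 and 288, 189 and 252 CPM in C57BL/6J (-2.81 ± 0.25 and -2.82 ± 0.18). Their means in the Cav1-null d15 libraries, 31.8 and 21.5 CPM, lay just under the lowest AKR/J library. Vwf, the von Willebrand factor gene of endothelial cells, was at 2.36, 5.87 and 1.82 CPM against 25.9, 15.6 and 24.4 CPM (-2.63 ± 0.46 SE, adjusted p = 0.00344). H2-D1, a class I histocompatibility gene whose sequence varies between strains, was at 2.39, 2.75 and 2.85 CPM against 13.3, 15.0 and 26.5 CPM (-2.71 ± 0.29 SE, adjusted p = 0.000455), and the Cav1-null mean of 14.0 CPM lay nearer C57BL/6J. The others of the 10 were Hba-a2, Gm49980, Mir6236 (-2.51 ± 0.48) and the unnamed gene ENSMUSG00000095041 (-2.91 ± 0.43).

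Some genes had reads in 1 strain and none in the other. There were 3707 genes with a read in AKR/J and none in the 3 C57BL/6J libraries, of which 11 had a mean of at least 1 CPM, and 2349 in the other direction, of which 6 did. The 5 highest on the AKR/J side were the lens genes Cryaa, Cryge and Crygb and the airway gene Bpifa1, whose reads came from AKR/J replicate 2 (56.0, 27.4, 15.1 and 14.1 CPM), and Gm12751, at 6.19, 6.30 and 5.95 CPM in all 3 libraries and at least 71.5-fold higher against a floor of 3 reads per library. On the C57BL/6J side the long non-coding RNA Gm49980 of chromosome 18 was at 20.8, 14.8 and 14.1 CPM, so that AKR/J was at least 176-fold lower, and AA388235 was at 3.95, 4.87 and 7.43 CPM, with AKR/J at least 57.6-fold lower. Gm32687, Gm9269 and Gm49769 followed at lower levels.

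Protein-coding genes with large differences that no gene list held were looked up after their values were seen. Hddc3, for a metal-dependent hydrolase, was at 17.3, 17.2 and 14.6 CPM in AKR/J and 3.27, 3.45 and 4.42 CPM in C57BL/6J (2.21 ± 0.18 SE, adjusted p = 0.000223). Swi5, which codes for a recombination repair protein, was at 347, 339 and 341 CPM against 112, 116 and 119.8 CPM (1.63 ± 0.064 SE, adjusted p = 2.73e-05). Rpa3, a subunit of the single-strand DNA binding complex, was also higher (1.501 ± 0.12). Others were lower in AKR/J. Ncan, the proteoglycan neurocan of the brain matrix, was at 124, 93.4 and 174 CPM against 626, 688 and 683 CPM (-2.29 ± 0.20 SE, adjusted p = 0.000263), with a Cav1-null mean of 148 CPM. Nptxr, the neuronal pentraxin receptor, was at 19.6, 18.9 and 31.8 CPM against 118, 115 and 139.5 CPM (-2.34 ± 0.19 SE, adjusted p = 0.000242), and Rtn4rl2 (-2.42 ± 0.14), Vgf (-2.30 ± 0.16), Map1a (-2.26 ± 0.22), Ttc28 (-2.25 ± 0.11) and Islr2 (-2.22 ± 0.19) were lower too.

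The gene lists followed the neural lineage from progenitors to synapses. Of 18 neural progenitor genes, 3 were higher and 10 lower in AKR/J (median -0.49 against 0.06 for all genes tested). Sox3, a transcription factor that keeps progenitors undifferentiated, was at 13.3, 8.84 and 20.9 CPM in AKR/J and 50.1, 55.7 and 45.3 CPM in C57BL/6J (-1.75 ± 0.26 SE, adjusted p = 0.00179). Its relative Sox1 (-1.44 ± 0.15), the receptor gene Notch1 (-1.37 ± 0.10), the matrix gene Tnc (-1.56 ± 0.12) and Sox2 (-0.59 ± 0.17) were lower as well. The radial glial genes Fabp7 (0.88 ± 0.12), Hes1 (0.40 ± 0.13) and Prom1 (0.25 ± 0.080) were higher. The list had 1 higher member without AKR/J replicate 1. With the trend removed 7 were lower and none higher, and in the model of all 27 libraries 8 were lower and none higher. Of 14 intermediate progenitor and proneural genes 5 were lower, Insm1 (-1.78 ± 0.18) and Eomes (-1.26 ± 0.23) among them. The count fell to 2 without AKR/J replicate 1, where Dll3 and Neurog2 lost their calls. After the correction 3 were lower and 1 higher, and in the model of all 27 libraries, where the call of Eomes was lost, 2 were lower. The lean to the lower side turned with the scaling, with 3 higher and 2 lower under upper quartile scaling and 4 higher and 2 lower with library sizes alone.

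Cell cycle genes were divided. Of 36 genes 13 were higher and 9 lower (median 0.0021), and without AKR/J replicate 1 the lower ones were 5. Removal of the trend left 9 higher and 6 lower, and in the model of all 27 libraries 4 were higher and 4 lower. The replication helicase genes Mcm2 (-0.86 ± 0.13) and Mcm3 (-0.76 ± 0.13) were lower. Ccne2, a cyclin of the entry into S phase (0.82 ± 0.11), and Nusap1, of the mitotic spindle (0.75 ± 0.078), were higher. The sign of the median depended on the scaling, being negative with RLE size factors.

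Neuronal genes were lower in AKR/J far more often than higher. Of 20 genes of postmitotic neurons 12 were lower and none higher (median -0.72). Ncam1, a neural adhesion molecule, was at 159, 158 and 327 CPM in AKR/J and 583, 673 and 683 CPM in C57BL/6J (-1.53 ± 0.27 SE, adjusted p = 0.00336), and Mapt, which codes for tau, at 497, 441 and 801 CPM against 1435, 1630.0 and 1718 CPM (-1.40 ± 0.21 SE, adjusted p = 0.00172). AKR/J replicate 3 was the highest of its group for both genes and still lay below every C57BL/6J library. Thy1, an adhesion molecule of maturing axons that is also allelic between these strains, was at 1.13, 2.72 and 1.47 CPM against 6.27, 5.93 and 8.67 CPM (-1.89 ± 0.36 SE, adjusted p = 0.00499), and Chga, a granin of secretory vesicles, was lower as well (-1.49 ± 0.16). After removal of the trend 13 of the 20 were lower.

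In the list of cortical projection neuron genes 17 of 22 were lower and none higher (median -0.85), and with the trend removed 11 were lower (median -0.67). Bcl11b, which directs subcerebral projection neurons of layer V, was at 125, 93.0 and 114 CPM in AKR/J and 367, 415 and 372 CPM in C57BL/6J (-1.73 ± 0.11 SE, adjusted p = 0.000126). Tbr1, of early-born deep-layer neurons, was at 81.0, 37.7 and 46.1 CPM against 236, 251 and 217 CPM (-2.03 ± 0.26 SE, adjusted p = 0.000932), a call that the model of all 27 libraries did not make. Reln, secreted by Cajal-Retzius cells of the marginal zone, was at 124, 90.0 and 114 CPM against 374, 388 and 379 CPM (-1.73 ± 0.11 SE, adjusted p = 0.000126). For these 3 genes the lowest C57BL/6J library lay above the highest AKR/J library. Of 16 forebrain patterning genes 5 were lower and 2 higher, with 10 lower and none higher without AKR/J replicate 3, 3 lower and 1 higher with the trend removed and 2 lower in the model of all 27 libraries. Of 20 midbrain and hindbrain patterning genes 3 were lower and none higher, with 9 lower without AKR/J replicate 3, 1 without AKR/J replicate 1 and 2 with the trend removed.

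Of 26 GABAergic genes 13 were lower and none higher (median -0.46), with 14 lower once the trend was removed but 5 in the model of all 27 libraries. Dlx2, a homeobox regulator of ventral forebrain progenitors, was at 37.6, 29.97 and 34.96 CPM in AKR/J and 98.0, 97.0 and 82.5 CPM in C57BL/6J (-1.37 ± 0.10 SE, adjusted p = 0.000178). Slc32a1, the vesicular transporter of GABA (-1.27 ± 0.22), was lower too, and the call of Dlx2 was not made in the model of all 27 libraries. Of 15 monoaminergic genes 1 was higher and 1 lower, or none higher and 4 lower without AKR/J replicate 3, and neither call was made with the trend removed.

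The list with the most calls was that of synapse and receptor genes, with 45 of 58 lower and 3 higher (median -0.83). Syn1, which codes for the synaptic vesicle protein synapsin I, was at 29.6, 25.1 and 48.2 CPM in AKR/J and 148, 142 and 166 CPM in C57BL/6J (-2.09 ± 0.21 SE, adjusted p = 0.00041). Bsn, for the presynaptic scaffold bassoon, was at 97.2, 79.0 and 106 CPM against 289, 337 and 355 CPM (-1.73 ± 0.11 SE, adjusted p = 0.000144). Both were lower in each AKR/J library. On the adhesion and receptor side, Nrxn2 was at 139, 115 and 175 CPM against 438, 497 and 542 CPM (-1.72 ± 0.15 SE, adjusted p = 0.000258), and Grin2b, the NMDA receptor subunit of the fetal brain, at 106, 87.5 and 104 CPM against 294, 349 and 349.9 CPM (-1.67 ± 0.10 SE, adjusted p = 0.00012). Among the higher members was the kainate receptor subunit gene Grik2 (0.32 ± 0.088). None of the list was called higher in 5 of the 6 fits without 1 library, and 6 were without AKR/J replicate 2. After the correction 32 were lower and 2 higher (median -0.40), the call of Grik2 being among those lost, and in the model of all 27 libraries 36 were lower and none higher. Neuronal splicing regulators were lower in 11 of 19 cases and higher in 3 (median -0.37), and with the trend removed 6 were lower and none higher, while 6 were lower without AKR/J replicate 1 as well. Nova2, an RNA-binding regulator of neuronal exons, was at 95.0, 70.9 and 148 CPM against 415, 477 and 464 CPM (-2.05 ± 0.23 SE, adjusted p = 0.00058), and Srrm4, which drives microexon inclusion, was lower as well (-1.05 ± 0.11).

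**Figure D3:**
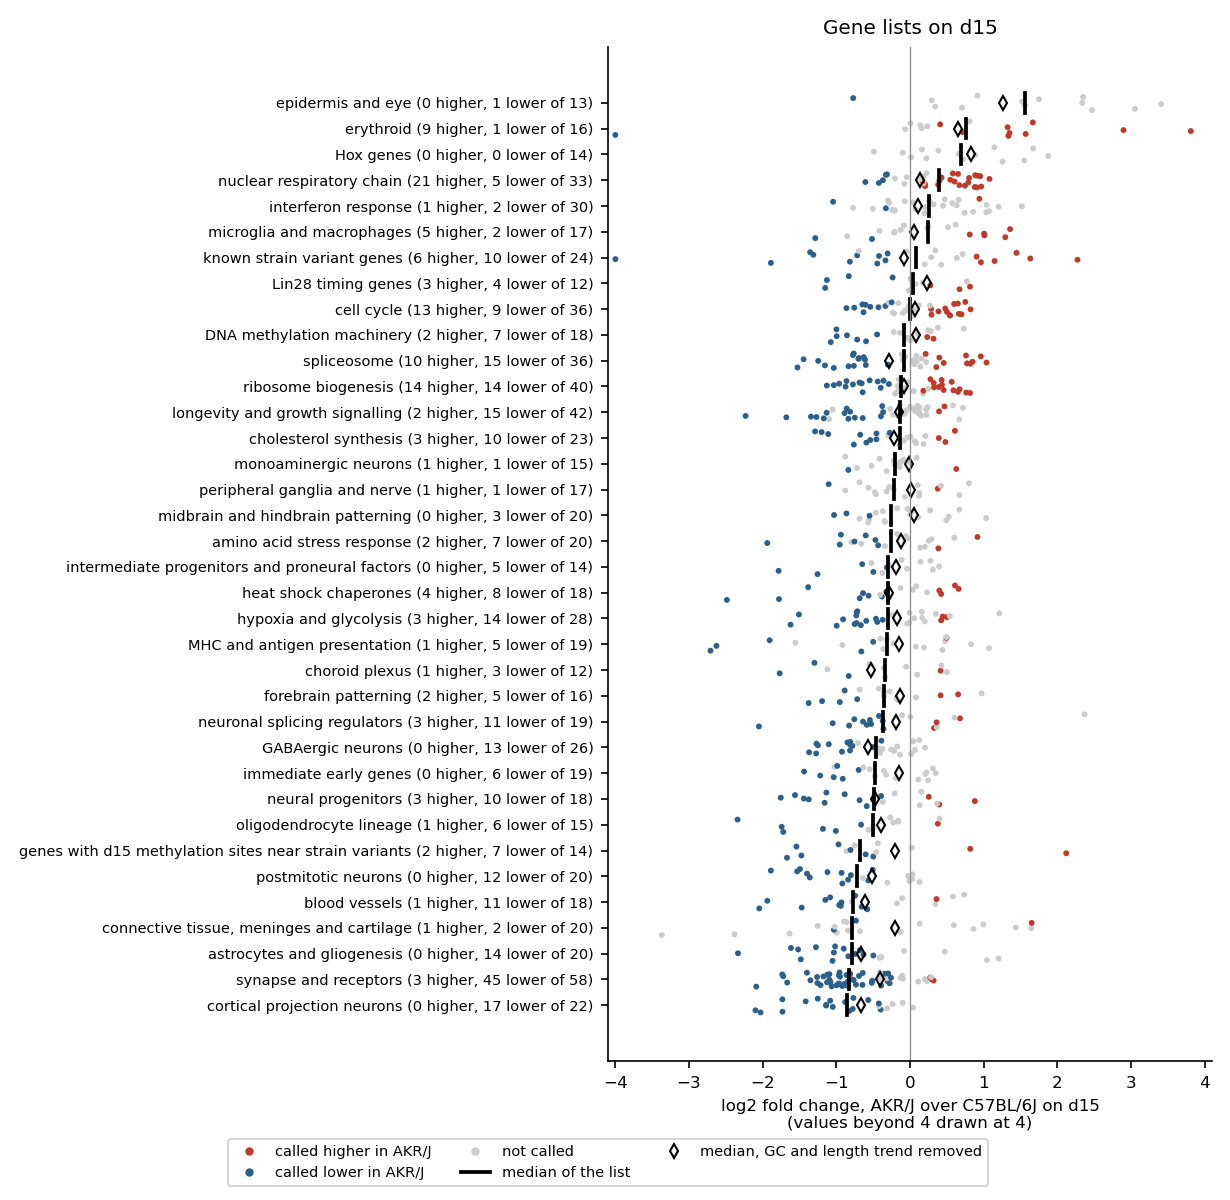
Log2 fold change of AKR/J over C57BL/6J on d15 for the members of each of the 36 gene lists with at least 12 genes tested. Points are coloured by call, and the largest values are drawn at the edge. Bars mark the list medians as fitted and diamonds the medians with the trend removed. Of all genes tested, 18.8% were higher and 22.3% lower. As fitted, without removal of the trend, synapse, cortical neuron, astrocyte and vessel lists lie far to the lower side, and erythroid and respiratory chain lists to the higher side.

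Glial lists leaned the same way as the neuronal ones. Of 20 astrocyte and gliogenesis genes 14 were lower in AKR/J and none higher (median -0.79), with 11 lower and 1 higher once the trend was removed. Nfix, a transcription factor of the NFI family that promotes gliogenesis, was at 143, 91.8 and 104 CPM in AKR/J and 607, 614 and 572 CPM in C57BL/6J, 5.29-fold lower (-2.34 ± 0.16 SE, adjusted p = 0.000149). Its Cav1-null d15 mean was 131 CPM, within the AKR/J range. Atp1b2, a sodium pump subunit of astrocytes, was at 26.4, 23.4 and 35.2 CPM against 87.0, 84.1 and 101 CPM (-1.62 ± 0.14 SE, adjusted p = 0.000279), and Clu, the secreted chaperone clusterin, at 10.7, 14.0 and 11.8 CPM against 36.0, 35.3 and 38.6 CPM (-1.52 ± 0.13 SE, adjusted p = 0.000256). Aldh1l1 was lower as well (-1.48 ± 0.20). Of 15 oligodendrocyte lineage genes 6 were lower and 1 higher (median -0.50), or 5 lower and none higher with the trend removed. Gpr17, a receptor of committed precursors, was low in both strains, at 1.07, 1.59 and 1.66 CPM against 5.16, 7.23 and 10.6 CPM (-2.34 ± 0.32 SE, adjusted p = 0.00125), and Olig1, a transcription factor of the lineage, was lower (-1.72 ± 0.19). Cspg4 (-1.74 ± 0.46) lost its call without C57BL/6J replicate 1, without C57BL/6J replicate 3 and with the trend removed.

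Of 18 blood vessel genes 11 were lower in AKR/J and 1 was higher (median -0.77). Cdh5, the cadherin that joins endothelial cells, was at 7.61, 13.4 and 13.3 CPM in AKR/J and 62.4, 38.4 and 48.1 CPM in C57BL/6J (-2.05 ± 0.26 SE, adjusted p = 0.000929). Kdr, the main receptor for VEGF, was at 18.9, 23.7 and 28.3 CPM against 73.7, 56.998 and 75.3 CPM (-1.47 ± 0.16 SE, adjusted p = 0.00054), and Slc7a5, an amino acid transporter of the blood-brain barrier, at 26.9, 29.9 and 46.4 CPM against 139, 133 and 141 CPM (-1.94 ± 0.18 SE, adjusted p = 0.000315). The endothelial genes Cldn5 (-0.96 ± 0.16) and Pecam1 (-0.58 ± 0.19) were lower by less, and the pericyte gene Rgs5 was higher (0.36 ± 0.085). With the trend removed 8 genes were lower and none higher, the calls of Pdgfrb, Pecam1, Tek and Rgs5 being lost. The list summed to between 323 and 361 CPM in the AKR/J libraries, below the 551 to 679 CPM of C57BL/6J. With single libraries left out 8 to 11 genes were lower, and with AKR/J replicate 3 and C57BL/6J replicate 1, the library with the highest connective tissue level, both left out 9 were.

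Of 17 microglia and macrophage genes 5 were higher and 2 lower in AKR/J. With single libraries left out 3 to 5 were higher and 1 to 3 lower, and the median ran from -0.087 to 0.66. In the fit without the trend 2 were higher and 2 lower, and in the model of all 27 libraries 2 were higher and 1 lower. The microglial receptor gene P2ry12 was higher (1.29 ± 0.16), as was Tyrobp (1.01 ± 0.22, a call that was lost with the trend removed), whereas the growth factor receptor gene Csf1r was lower (-1.29 ± 0.22). The chemokine gene Pf4 (1.36 ± 0.29) lost its call with the trend removed and in the model of all 27 libraries. The list summed to 95.1 to 129 CPM in the AKR/J and 101 to 151 CPM in the C57BL/6J libraries. Of 12 choroid plexus genes 1 was higher and 3 lower, or none higher and 5 lower with the trend removed. Of 17 genes of peripheral ganglia and nerve 1 was higher and 1 lower, and neither was called with the trend removed.

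Respiratory chain genes were mostly called higher as fitted, and higher and lower in nearly equal numbers once the trend was removed. Of 33 nuclear genes of the respiratory chain 21 were higher in AKR/J and 5 lower (median 0.40). Uqcrb, a subunit of complex III, was at 50.3, 50.4 and 51.8 CPM in AKR/J and 23.7, 26.9 and 25.1 CPM in C57BL/6J (1.08 ± 0.074 SE, adjusted p = 0.00015), and Ndufa4, a small subunit tied to cytochrome oxidase, at 153, 146 and 148 CPM against 72.8, 84.7 and 82.7 CPM (0.97 ± 0.073 SE, adjusted p = 0.000196). Sdha, the large catalytic subunit of complex II, was lower (-0.61 ± 0.089). The lower genes were 2 without AKR/J replicate 1. With the trend removed 11 were higher and 10 lower (median 0.14), and in the model of all 27 libraries 9 were higher and 3 lower, against its 6.77% and 15.7% of all genes. All 7 mitochondrially encoded genes tested were higher, with a median of 0.73. For mt-Co1, of complex IV, the levels were 9681, 9291 and 8441 CPM against 4765, 5182 and 5018 CPM (0.94 ± 0.12 SE, adjusted p = 0.00104). None of the 7 was called higher and 1 was called lower with the trend removed, where the median was -0.14, and in that fit 5 of the 7 turned to the other sign. In the model of all 27 libraries, which tested 8 such genes, none was called higher and 1 was called lower. Mitochondrial reads were 2.26% to 2.69% of the reads on genes in AKR/J and 1.21% to 1.31% in C57BL/6J.

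Of 28 hypoxia and glycolysis genes 14 were lower and 3 higher (median -0.30), and with the trend removed 10 were lower and 1 higher. Hk1, the hexokinase of brain (-1.62 ± 0.20), Ndrg1 (-1.51 ± 0.25), the glucose transporter gene Slc2a1 (-0.996 ± 0.13) and Eno1 (-0.91 ± 0.12) were lower. Of 23 cholesterol synthesis genes 10 were lower and 3 higher, with the regulator gene Srebf2 among the lower ones (-1.20 ± 0.14), and 9 were lower and 2 higher with the trend removed. Of 20 genes of the amino acid stress response 7 were lower and 2 higher, and the lower ones were 4 without AKR/J replicate 1 and 5, with none higher, after removal of the trend. With upper quartile scaling 5 were higher and 6 lower, and with library sizes alone 5 were higher and 5 lower. Heat shock chaperones were lower in 8 of 18 cases and higher in 4, and 5 were lower without AKR/J replicate 1. After removal of the trend 6 were lower and 1 higher, and the model of all 27 libraries gave the same counts, but with library sizes alone 6 were higher and 6 lower. The inducible chaperone gene Hspa1a was at 0.440, 0.306 and 0.288 CPM in AKR/J against 1.97, 2.07 and 2.09 CPM in C57BL/6J (-2.49 ± 0.28 SE, adjusted p = 0.000543), a low level in both. Of 19 immediate early genes 6 were lower and none higher, or 4 lower with the trend removed.

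Lists of RNA and protein production showed no common direction. Of 40 ribosome biogenesis genes 14 were higher and 14 lower, Rrp12 standing at -1.13 ± 0.10 and Npm1 at 0.82 ± 0.10. After removal of the trend, where Npm1 lost its call, 7 were higher and 12 lower, and in the model of all 27 libraries 5 were higher and 14 lower. Among 36 spliceosome genes 10 were higher and 15 lower, and the large core components Prpf8 (-1.44 ± 0.14), Snrnp200 (-1.25 ± 0.12) and Sf3a2 (-1.53 ± 0.11) were lower while the small proteins Snrpe (1.04 ± 0.078) and Lsm3 (0.96 ± 0.11) were higher. Library sizes alone gave 15 spliceosome genes higher and 14 lower. The sign of both medians changed with upper quartile scaling and with library sizes alone, and the same held for the DNA methylation and longevity lists below. In the fit without the trend 7 spliceosome genes were higher and 18 lower, and in the model of all 27 libraries 4 were higher and 14 lower.

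Growth regulators were more often lower than higher as fitted, and timing genes were called in both directions. Of the 12 genes of the Lin28 timing circuit 3 were higher and 4 lower, with the chromatin protein genes Hmga1 at -1.15 ± 0.18 and Hmga2 at 0.81 ± 0.23. Lin28b, which blocks let-7 maturation, was higher (0.67 ± 0.081) and the MYC family gene Mycn lower (-1.13 ± 0.16). The call of Hmga2 was lost without AKR/J replicate 2 or 3 and without any C57BL/6J replicate. Removal of the trend gave 5 higher and 3 lower of the 12, and so did upper quartile scaling and library sizes alone. Of 42 longevity and growth signalling genes 15 were lower and 2 higher (median -0.13). FOXO transcription factors act downstream of insulin signalling, and the genes of 3 of them were lower. Foxo6, the FOXO member of the brain, was at 21.0, 14.8 and 16.6 CPM in AKR/J and 86.3, 87.9 and 83.4 CPM in C57BL/6J (-2.23 ± 0.12 SE, adjusted p = 0.000104), Foxo3 was at 21.4, 28.7 and 25.3 CPM against 69.7, 64.6 and 66.9 CPM (-1.34 ± 0.12 SE, adjusted p = 0.000281), and Foxo1 was lower too (-1.27 ± 0.23). Irs2, the insulin receptor substrate of the same pathway, was at 18.6, 19.3 and 25.7 CPM against 67.8, 73.9 and 71.8 CPM (-1.68 ± 0.12 SE, adjusted p = 0.000167). The receptor genes Igf2r (-1.17 ± 0.15) and Igf1r (-0.84 ± 0.079) and the growth kinase genes Mtor (-0.89 ± 0.067) and Rptor (-1.13 ± 0.064) were lower. The mitochondrial transcription factor gene Tfam (0.47 ± 0.065) and the kinase gene Rps6kb1 (0.39 ± 0.055) were higher. With library sizes alone 13 were lower and 9 higher. In the fit without the trend 11 were lower and 3 higher, and the calls of Igf1r, Mtor and Rps6kb1 were among those lost.

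Of 18 genes of the DNA methylation machinery 7 were lower and 2 higher, and 4 were lower and 4 higher with the trend removed. With single libraries left out 6 to 8 were lower and 0 to 3 higher. Dnmt1, the maintenance methyltransferase, was lower (-1.08 ± 0.082 SE, adjusted p = 0.000205). Another list held genes that the study named for methylation sites near strain variants in d15 fetal brain of these strains, so their direction is no independent evidence, and whether the RNA came from the same brains is not given in the sources used here. All 14 were tested, and 7 were lower and 2 higher, or 5 and 2 with the trend removed. Their log2 fold changes ran from 2.12 for Gm2093 to -1.67 for C1qtnf1, with Rusc2 (-1.54 ± 0.12) and Gas7 (-1.47 ± 0.19) among the lower ones.

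Genes known to vary between laboratory strains were called in both directions. Of 24 tested 6 were higher and 10 lower in AKR/J, or 5 and 8 with the trend removed, and 8 and 7 with library sizes alone. Trim12a, a restriction factor of the TRIM family, was at 0.0629, 0 and 0 CPM in AKR/J and 2.92, 2.18 and 2.65 CPM in C57BL/6J (-6.65 ± 0.66 SE, adjusted p = 0.000382), while its neighbour Trim12c was at 12.9, 18.5 and 12.0 CPM against 6.32, 3.57 and 4.84 CPM (1.63 ± 0.27 SE, adjusted p = 0.00274). Ifi202b, an interferon-inducible DNA sensor gene that is allelic between strains, was at 2.20, 2.20 and 1.76 CPM against 0.703, 0.207 and 0.413 CPM (2.27 ± 0.42 SE, adjusted p = 0.00439), without a call in the model of all 27 libraries. Glo1 (0.96 ± 0.14), Wdfy1 (1.15 ± 0.28) and Alad (0.90 ± 0.073) were higher, and Erdr1 was lower (-1.36 ± 0.20). Of 30 interferon response genes 1 was higher and 2 were lower, and none was called with the trend removed. With single libraries left out 0 to 4 were higher and 1 to 2 lower. DESeq2 and the likelihood ratio test each gave 3 higher and 2 lower. Of 19 genes of the histocompatibility complex and antigen presentation 1 was higher and 5 lower, H2-T24 (-2.63 ± 0.36) following H2-D1, and the lower ones numbered 3 without C57BL/6J replicate 3 and 4, with none higher, after removal of the trend.

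The level of the Cav1-null d15 libraries was set beside both strains as a description. For 2777 of the 3696 genes higher in AKR/J (75.1%) and 3774 of the 4393 lower (85.9%), the Cav1-null mean lay nearer AKR/J than C57BL/6J. The largest differences behaved otherwise. Among genes that differed by at least 3 on the log2 scale, the Cav1-null mean lay nearer AKR/J for 9 of 77 higher (11.7%) and 7 of 40 lower genes (17.5%). With the trend removed the shares over all DE genes were 64.6% and 75.8%. By list, the Cav1-null mean lay nearer AKR/J for 11 of 11 lower vessel genes, 15 of 15 lower longevity genes and 13 of 14 lower astrocyte genes, and for 29 of 45 lower synapse genes (64.4%), under the share of all lower genes. Lists on the other side included the cell cycle, with 2 of 13 higher genes (15.4%) though 9 of 9 lower ones, and strain variant genes, with 0 of 6 higher and 4 of 10 lower ones.

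Genes that change with gestational age in Cav1-null mice were then read in the d15 comparison. Between d12 and d15 in Cav1-null brain 2318 of 19934 genes rose (11.6%) and 2348 fell (11.8%), from libraries that the strain comparison does not use. Of the rising genes 2245 were tested on d15, and 221 (9.84%) were higher and 919 (40.9%) lower in AKR/J, with a median log2 fold change of -0.28 against 0.06 for all genes. Of the falling genes 2331 were tested, and 513 (22%) were higher and 642 (27.5%) lower, with a median of -0.032. With the trend removed 130 rising genes were higher and 616 lower, and 267 falling genes were higher and 414 lower.

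The strain difference was measured on d12 and d17 in libraries of their own. On d12 5529 genes were DE (28.6% of 19320 tested) and on d17 150 (0.742% of 20207), with 4275 genes at an unadjusted p under 0.05 on d17. Of the d15 genes higher in AKR/J, 1699 were also higher on d12 (46% of the d15 and 60.7% of the d12 genes) and of the lower ones 2281 (51.9% and 83.5%), while 21 genes were called in opposite directions. Once the trend was removed 2935 genes were DE on d12 (15.2%), 1576 of them higher (8.16%) and 1359 lower (7.03%), and 262 were DE on d17 (1.3%). On d17 67 of the higher (1.81% and 87%) and 59 of the lower genes (1.34% and 80.8%) were called the same way, and none the opposite way. Across the d15 DE genes the d12 fold changes had the same sign in 93.6% of 7960 genes, with Pearson's r 0.783 and Spearman's rho 0.848, and the d17 fold changes in 95.9% of 8010 genes, with r 0.854 and rho 0.89. Genes are not independent replicates, and the strain difference moved with GC content on d12 and d17 too. On these days its median was 0.72 and 0.26 in the GC-poorest bin and -0.52 and -0.37 in the GC-richest. The shared signs and correlations are therefore descriptions without a test. The genes higher on d15 had a median log2 fold change of 0.81 on d12 and 0.37 on d17, and the lower genes -0.82 and -0.44.

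In all, 65 genes were called in the same direction on each of the 3 days, 34 higher and 31 lower, of which 34 were protein-coding, 21 pseudogenes and 8 long non-coding RNAs. The higher genes included the embryonic globins Hbb-y (log2 fold change 5.90 on d12 and 7.09 on d17), Hbb-bh1 and Hba-x, and Ifi202b, Hddc3, Swi5 and Alad. The lower genes included Hba-a2, Myo7a (-3.50 and -3.96), the meiotic cohesin gene Rec8, Trim12a, the axon guidance gene Nav1, the Notch effector gene Rbpj and the centromere gene Hjurp. This count rested on single libraries of the other days. On d12, AKR/J replicate 1 held 1229 reads of the 4 Y-linked genes under a female label. The count was 37 without that library and also without AKR/J d12 replicate 3, where 1369 and 1529 genes were called on d12. It was 12 without C57BL/6J d12 replicate 2, where 25 genes were called on d12, and 2659 without C57BL/6J d17 replicate 2, where 5478 were called on d17. The d15 difference itself was tested against the mean of the d12 and d17 differences in the 18 libraries. No gene of 22353 passed in edgeR's quasi-likelihood test, with 1032 genes at an unadjusted p under 0.05, and 12 genes passed in DESeq2 and 23 in edgeR's likelihood ratio test.

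Genes that separated the strains by 10-fold or more on d15 were followed across all 27 libraries. They were chosen after the data were seen, as called genes with a mean of at least 5 CPM in the higher strain and every library at least 10 times the highest of the other strain. By this rule 27 genes marked AKR/J, 22 of them pseudogenes, and 6 marked C57BL/6J, namely Rec8, Myo7a, Hba-a2, 2410018L13Rik, Gm49980 and AA388235. A library was counted as being at the AKR/J level of a gene when it reached 1 part in 4 of the AKR/J d15 mean. The 6 AKR/J libraries of d12 and d17 were at that level for 27 of 27 genes, and those of d15 were so as well, largely by the choice of genes. C57BL/6J d15 libraries were so for none, as the rule requires, but C57BL/6J libraries of other days were so for 9, 6 and 11 genes on d12 and 6, 5 and 3 on d17. For 25 of the 27 genes between 1 and 5 of the 6 other C57BL/6J libraries were at the AKR/J level, and Rps7-ps3 and Gm7993 were the exceptions. Gm8730 ran from 0.372 to 129 CPM and Hmgb1-ps7 from 0.199 to 38.6 CPM in those 6 libraries. For 26 of the 27 genes no Cav1-null library was at the AKR/J level, and Gm13306 was so in the 3 of d17. By the same limit, the 6 genes that marked C57BL/6J were at its level in no AKR/J library and in 5 or 6 of the 6 other C57BL/6J libraries.

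**Figure D4:**
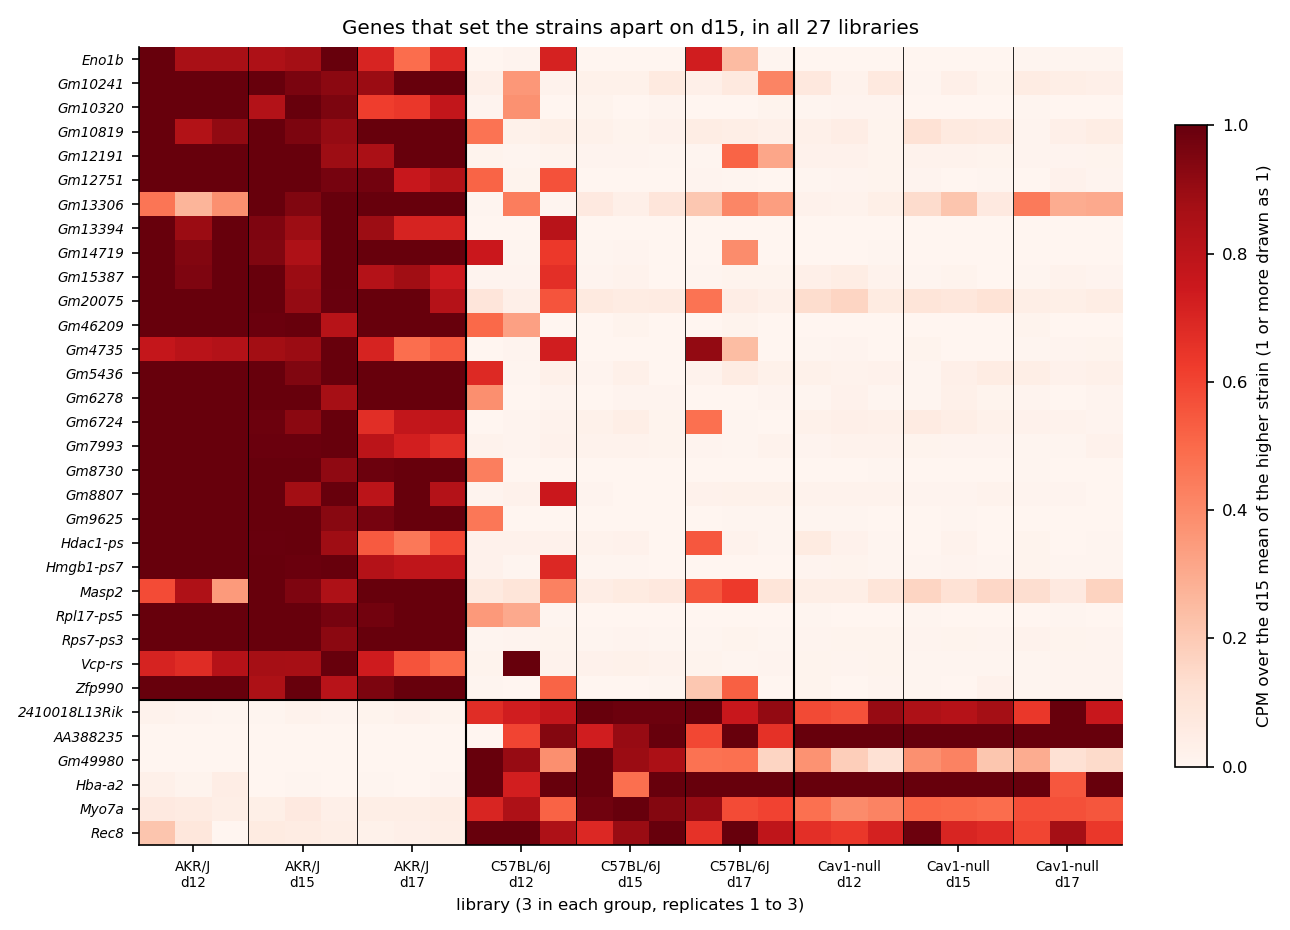
CPM divided by the d15 mean of the higher strain, drawn as colour with values over 1 shown as 1, in each of the 27 libraries (columns, by strain and day) for the 27 genes that marked AKR/J and the 6 that marked C57BL/6J on d15. For the 27 genes the AKR/J block is high, the C57BL/6J d15 and nearly all Cav1-null libraries are low, and the C57BL/6J d12 and d17 libraries are high for 3 to 11 of them.

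Splice junction reads, counted in a table of their own, were compared last. Of 55669 junctions 166 had at least 10 reads in each AKR/J d15 library and none in C57BL/6J, and 116 the reverse, of which 49 and 44 lay in genes that were not DE. Since the authors filtered these reads, a 0 may mark reads taken out. Among junctions with at least 100 reads in 2 libraries of a group, 13.2% (AKR/J), 12.7% (C57BL/6J) and 13.4% (Cav1-null) on d15 had none in the remaining library, and 6 of the 10 junctions named below had both a 0 and at least 10 reads within the Cav1-null d15 group. The 5 junctions with the most reads on each side, by the same choice of genes and chromosomes, are read with that limit. On the AKR/J side they lay in the translation factor gene Eif1 (1160, 1126 and 1386 reads, with 0 in each C57BL/6J library), in Snrnp70 (1061, 986 and 1012), Rbm8a (540, 481 and 595), Gm15445 (474, 382 and 592) and Maged2. On the C57BL/6J side they lay in Hypk (574, 726 and 712), Polr2c, Hdac1, Gm45257 and Cdca8.

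On d12 and d17 none of the 10 junctions kept fully to its d15 pattern. Nearest to it came those of Cdca8 and Hdac1, which had no read in any AKR/J library of the 3 days, and those of Gm15445 and Gm45257, which were read in every library of the strain that had them on d15 but also in some of the other strain. The junctions of Cdca8 and Gm15445 are described as 1 example of each kind. Cdca8 codes for borealin, a subunit of the chromosomal passenger complex that guides chromosome segregation. Its junction joins exons 9 and 10 across the intron chr4:124812824-124813405 and had 165, 136 and 126 reads in C57BL/6J and 64, 55 and 71 in Cav1-null on d15, and it had no read in the 9 AKR/J libraries of the 3 days. It had at least 10 reads in all 9 Cav1-null libraries but in 3 of the 6 C57BL/6J libraries of d12 and d17, with 0 in the other 3. The summed reads of the other 5 Cdca8 junctions were 11 to 34 in AKR/J and 163 to 293 in C57BL/6J on d15, although the gene was not DE by its count (log2 fold change -0.13, adjusted p = 0.281). The Hdac1 junction had at least 10 reads in 3 of those 6 C57BL/6J libraries as well, with 0 in the other 3, and in 7 of the 9 Cav1-null libraries. The unannotated junction of Gm15445 was read in all 9 AKR/J libraries, in none of the 9 Cav1-null libraries, and in 2 of the 6 C57BL/6J libraries of d12 and d17. That of Gm45257 was read in all 9 C57BL/6J and all 9 Cav1-null libraries and in 3 of the 6 AKR/J libraries of d12 and d17. The splice sites in Cdca8 and Gm15445 are shown from the GRCm39 reference, with the first and last pair of intron bases in capitals.
Cdca8 donor, chr4:124813396-124813415, minus strand: aaagctctcgGTgagtccca
Cdca8 acceptor, chr4:124812814-124812833, minus strand: cttgtttcAGagccgcctcg
Gm15445 donor, chr1:135080595-135080614, plus strand: gcgccattgtGTaagtaggg
Gm15445 acceptor, chr1:135081904-135081923, plus strand: ccttccccAGgtatatggtg
Both introns begin with GT and end with AG in the reference, which carries the C57BL/6J sequence. AKR/J bases at these sites were not analysed here.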

How the data were processed

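RNA of the fetal brain was selected by poly-T, primed with random hexamers and sequenced in pairs of 150 bases. The submitters' processing notes name FastQC, cutadapt, fastp, STAR, edgeR, bedtools and GRCm39; the counting tool, its strand setting and its treatment of reads that map to several genes are not given in the sources used here. The authors deposited raw read counts per gene and a second table of read counts per splice junction, made with 2-pass STAR and filtered by them.

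Counts were tested with edgeR 4.0.16 in R 4.3.3 (quasi-likelihood test, TMM, filterByExpr, Benjamini-Hochberg adjusted p under 0.05) on the 6 d15 libraries alone. The SE of a fold change is its size divided by the root of the F statistic. CPM are counts relative to library sizes that TMM scaled over all 27 libraries. Genes were matched by ID to GENCODE mouse release 39 (54749 of 55416), which gave coordinates, GC content and transcript length. The trend fit, chosen after the data were seen, took a loess trend with GC content and length out of each library as an offset. P-values measure only the spread between these 3 fetal samples per group, whose litters are not labelled.

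The gene lists (40, of which 10 mark other cells) and the members were chosen with earlier results of these data known. Named genes were the 10 largest rises and 10 largest falls among DE genes whose strains did not overlap and whose average log2 CPM reached 3, up to 4 DE members of each list with the largest change plus members that a role in the text needs, the label checks, the 5 highest genes with no read in the other strain, and the 5 highest junctions per strain with at least 10 reads in each library of 1 strain and 0 in the other in genes not DE. Junctions on chromosome 18 or in genes that were not tested were left out of that choice. No gene passed the test that a further part of the rule needed. The protein-coding genes outside the lists, the strain-marking genes and the genes named from the count over 3 days were chosen after values were seen. A few list members that the rule named are not reported here. Shared 31-base words and pairwise alignments were computed from GENCODE transcripts with Biopython 1.88 and reference sequence was read with samtools 1.23.1.

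In counts simulated from the 6 libraries 97 of 200 changed genes of 19692 were recovered (48.5%), with 5 false calls. Replicate numbers do not pair the samples, since deviations of same-numbered libraries correlated at -0.399, -0.503 and 0.343. Alternatives were DESeq2 1.42.0, the likelihood ratio test, other scalings and filters, thinned counts, a model of all 27 libraries, a fold threshold, a replicate block, and leaving out libraries.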

Additional observations from a re-analysis of the deposited data

Results flagged for a closer look

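Some C57BL/6J libraries outside the d15 comparison carried signal at genes that separated AKR/J from C57BL/6J on d15. Of the 27 genes at least 10 times higher in every AKR/J d15 library, C57BL/6J d12 replicates 1, 2 and 3 were at the AKR/J level for 9, 6 and 11 genes and C57BL/6J d17 replicates 1, 2 and 3 for 6, 5 and 3 genes, against 0 in each C57BL/6J d15 library. These libraries are not among the 6 of the d15 test, but they enter the scaling of the CPM and the model of all 27 libraries. Their signal was not tested further, and its source cannot be told from read counts.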

How the results depend on the processing

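The count of 8089 DE genes stayed within 1.5 times under DESeq2, the likelihood ratio test, RLE, upper quartile, library size scaling and the filters. It was 5233 in the model of all 27 libraries, 4789 with the GC content and length trend removed and 1892 when a log2 difference of 1 was asked for, and it ran from 5749 (without C57BL/6J replicate 2) to 7828 (without AKR/J replicate 3) with single d15 libraries left out. The share of calls that were higher in AKR/J was 45.7%, and it was 60.1% with upper quartile scaling, 62.8% with library sizes alone and 30.1% in the model of all 27 libraries.

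The count of 65 genes called alike on all 3 days was 661 with DESeq2, 534 with the likelihood ratio test, 501 without a filter, 27 with at least 10 reads in every library, 547 in the model of all 27 libraries and 366 with the replicate block, and 12 to 2659 with single libraries left out. The test of the d15 difference against the other days, with 0 genes, gave 12 with DESeq2, 23 with the likelihood ratio test, 16 without a filter, 2 in the model of all 27 libraries, 1 with the trend removed and 0 to 20 with single libraries left out. The median over genes that rise in Cav1-null brain, -0.28, was -0.12 with upper quartile scaling, -0.099 with library sizes alone, -0.35 with the replicate block, -0.19 with the trend removed and -0.42 to -0.17 with single libraries left out. For the -0.19 the rising genes were also called anew with the trend removed. Over the rising genes called as fitted, the median with the trend removed was -0.22. That over genes that fall was 0.10 with upper quartile scaling, 0.14 with library sizes alone, 0.12 with the fold threshold and -0.089 to 0.0066 with single libraries left out. The AKR/J and C57BL/6J junction counts of 166 and 116 were 2 and 5 when all 27 libraries had to keep to the same side and 30 and 60 when the Cav1-null d15 libraries had to side with C57BL/6J, and 280 to 336 and 194 to 254 with single libraries left out, where fewer libraries have to meet the rule. Otherwise the causes were not tested.

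Of 181 named DE genes, mt-Cytb (-0.0034) and mt-Nd2 (-0.14) reversed with the trend removed, where 28 others lost their call. Of the members named for a role, Tfrc (-0.018), Rgs5 (-0.045), Rps6kb1 (-0.012) and Grik2 (-0.0015) turned sign there too, without a call. Calls were lost by 28 genes in the model of all 27 libraries, by 44 with the fold threshold, by 9 with the replicate block, by 0 to 5 under other scalings, tools and filters, and by 26 in at least 1 leave-one-out. With the replicate block 6631 genes were DE; samples share only a number, and libraries of other numbers correlated at up to 0.634. The Hox list gave no value at 10 reads in every library, because none of its genes was left. List medians changed sign in 11 of 40 lists when a library was left out and in 6 with the trend removed. Counting noise limits genes near 0 reads, and 3 libraries per strain limit the rest.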
